A study of Homo sapiens with 6 samples.

Results

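The forkhead factor gene FOXO3 was examined together with 9 genes known to be induced by FOXO factors or in resting cells: KLHL24, FBXO32, CCNG2, IRS2, SESN1, SESN3, PIK3IP1, KLF9 and TSC22D3. The genes were taken by symbol, through their Ensembl identifiers. All 10 were found among the 25969 genes of the data, and all 10 were among the 20927 genes with a mean normalized read count of at least 1, which were tested. RNA sequencing was done on 6 libraries of prostate cancer cells of the cell line labelled LNCaP. In 3 libraries the genotype is given as VIM-AS1 overexpressed and the cells carried a VIM-AS1 overexpression vector. In the 3 controls the genotype is given as WT and the cells were transfected with pcDNA3.1, a plasmid without that gene. VIM-AS1 is a noncoding RNA from the strand opposite VIM, the gene of vimentin. The labels give no time after transfection, no number of clones, and no statement on whether replicates were grown as separate cultures. The p-values therefore reflect the variation among 6 libraries, part or all of which may be technical.

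FOXO factors are forkhead transcription factors that are held out of the nucleus by insulin and growth factor signalling. The kinase AKT phosphorylates them, 14-3-3 proteins bind the phosphorylated form, and the exportin XPO1 carries it to the cytoplasm. When this signal is low, FOXO factors bind DNA and switch on genes of cell cycle arrest, protein breakdown, stress defence and insulin signalling itself. In prostate cancer, where AKT signalling is often high, much FOXO protein is kept in the cytoplasm. RNA levels do not show where the protein is or whether it is phosphorylated.

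The libraries held 14762893 to 19889745 reads. The values given are normalized read counts, that is, reads divided by 1 size factor per library, and were deposited in that form. Values are listed for replicates 1, 2 and 3 in that order. VIM-AS1 itself stood at 2197, 2019 and 2763 in the overexpression libraries and at 8.63, 1.22 and 5.53 in the controls, as the labels state. The third library of each group differed from the first and second in a way that followed GC content (Spearman rho -0.83 across 13175 genes with a mean of at least 20, which are not independent replicates). A gene is called below when its adjusted p in limma was under 0.05, in a fit without a term for this shift or in a fit with a term for the third libraries. The term was chosen with earlier results of these data known, so its p-values may be too small, and both fits are given. The words rose and fell are used for genes called with the term. Mitochondrial transcripts took 5.57% to 7.06% of reads in the overexpression libraries and 8.73% to 14.3% in the controls, without overlap. Of 10 markers of luminal prostate cells, 8 were in the data and none was called, with summed values of 68150 to 121703 under overexpression and 75816 to 138747 in the controls. KRT8, KRT18, HOXB13 and EPCAM were present in every library, but KLK3, the gene of prostate-specific antigen and a defining marker of LNCaP, had 2 reads in control replicate 1 and 0 in the others, and FOLH1 had 0 to 4 reads. The cells are therefore called by their label only. Of 11 markers of other cell types, 9 were in the data and 4 were called with the term (COL1A1, PDGFRB and TP63 lower, VWF higher). Their summed values were 1728 to 2557 under overexpression and 2600 to 3580 in the controls, while COL1A2, PECAM1, CD68 and KRT5 stood at or near 0. The part of these markers and of the mitochondrial share in the results was not tested, and in bulk RNA fewer cells of a type and less RNA per cell cannot be told apart.

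KLHL24, FBXO32, CCNG2 and TSC22D3 fell and IRS2 rose in the fit with the term, and FOXO3, SESN1, SESN3, PIK3IP1 and KLF9 were not called. The median log2 fold change of the 10 genes was -0.36, against -0.02 for all genes tested, and 8 of the 10 values were negative, as were 52% of all (10876 genes). With the term 5 of 10 genes were called, where the background over all genes tested was 19.4% called, 11.5% higher and 7.94% lower. That background includes genes with few reads, whereas each of the 10 genes had 24 or more reads in each library. Among the 14183 genes that reached 10 reads throughout a group, the same fit called 29.9% (2553 higher, 1689 lower). Their median log2 fold change was 0.03. This higher background is the closer one for the 10 genes, of which 5 were again called. With the term the number dropped to 3 without overexpression replicate 1, overexpression replicate 2 or control replicate 3, and to 2 (KLHL24 and IRS2) without overexpression replicate 3. Over all genes, 288 were called without overexpression replicate 3 and 618 without control replicate 3, against 4065 with all libraries, so the drops in the counts below stand beside a drop over the whole table. With the term, leaving out either replicate 3 makes the fold change rest on replicates 1 and 2 of both groups. These 2 settings therefore give the same fold change (-1.45 for KLHL24) and are not separate checks of 1 library each. Without the term none of the 10 was called by limma, where the background was 0.0239%, or 5 genes in all. At an unadjusted p under 0.05 that fit gave 3 of the 10 (IRS2, KLHL24 and FBXO32), against 13.6% of all genes. DESeq2 without a term called the same 3, against a background of 1.69%. edgeR and limma-voom without a term called 0, against 0.0191% each. These 3 were also the genes among the 10 whose groups did not overlap, against a background of 19.8% of genes. A fit with the replicate number as a block called 6 of the 10, adding KLF9, against a background of 26.6%. Fold changes were computed as differences of log2(value + 1), so those of genes with few reads are pulled toward 0.

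**Figure D1:**
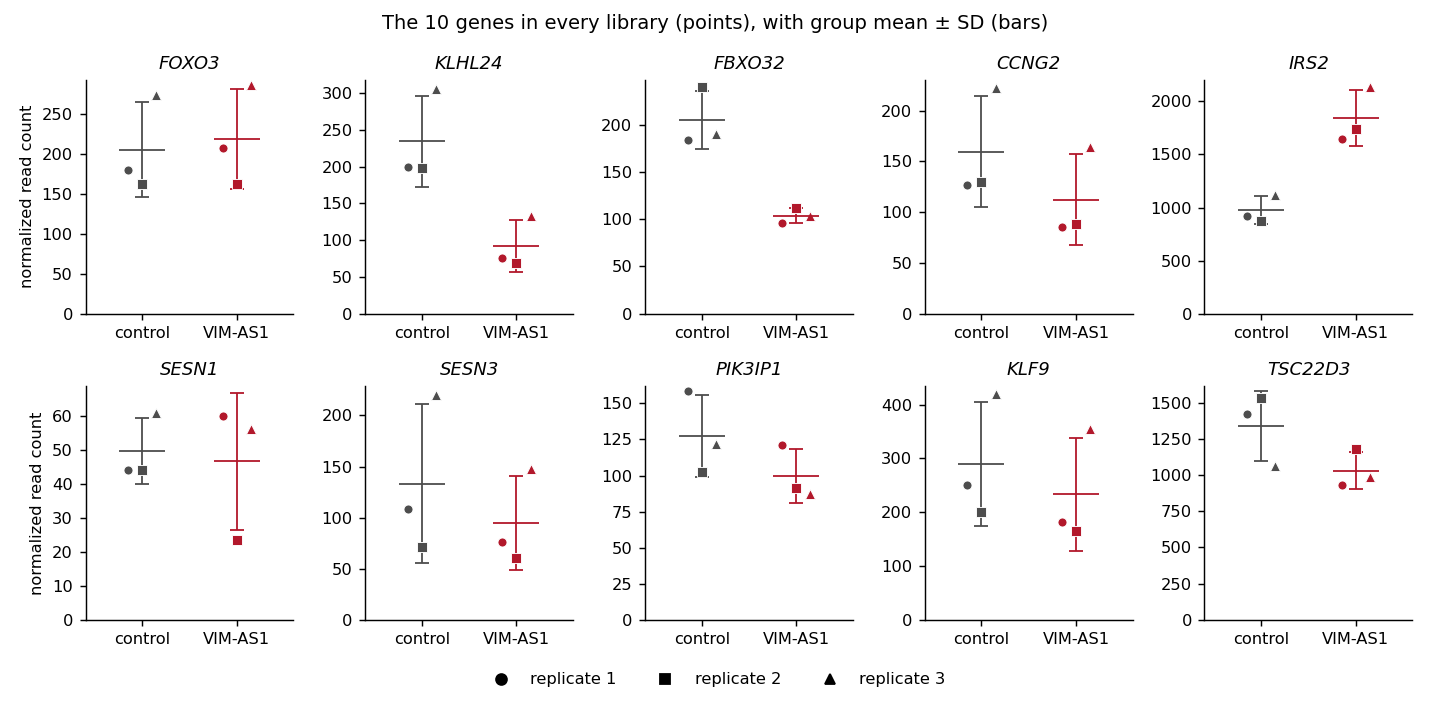
Normalized read count (vertical axis, from 0) of the 10 genes in each of the 6 libraries; each point is a library, its shape gives the replicate number, and bars are the group mean ± SD over 3 libraries. KLHL24 and FBXO32 lie lower and IRS2 lies higher in all overexpression libraries than in any control, and replicate 3 is the highest of its group for KLHL24, CCNG2, SESN3, KLF9, FOXO3 and IRS2.

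FOXO3 (ENSG00000118689), on the plus strand of chromosome 6 from 108559835 to 108684774 (GRCh38, GENCODE 29), encodes the factor after which the set is named. Its values were 207.6, 161.7 and 285.5 under VIM-AS1 overexpression and 179.4, 162.5 and 273.3 in the controls. The groups overlapped almost fully, and in both of them replicate 3 was the highest library. The mean was 218.2 ± 62.6 (SD, n = 3) against 205.0 ± 59.7. This is a log2 fold change of 0.09 ± 0.15 (SE, with the term; limma adjusted p = 0.74), with a 95% interval from -0.22 to 0.40. At this precision a change of FOXO3 RNA was not detectable. Its sign turned to -0.0033 when each library's trends with GC content and length were removed. FOXO3B, a processed pseudogene on chromosome 17 that is a near copy of FOXO3, took 13 to 32 reads a library beside the 133 to 346 reads of FOXO3. Reads that fit both copies cannot be assigned with certainty.

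Of the other FOXO genes, FOXO4 and FOXO6 fell with the term and FOXO1 was not called. FOXO4 (ENSG00000184481), on the plus strand of chromosome X from 71096197 to 71103535, stood at 351.9, 328.2 and 269.1 under overexpression and at 744.4, 790.4 and 458.1 in the controls. Every overexpression library lay below every control. FOXO4 fell from 664.3 ± 180 to 316.4 ± 42.6, a log2 fold change of -1.04 ± 0.12 (SE; limma with the term, adjusted p = 1.23e-05). FOXO6, a family member best known from brain, stood at 162.2, 252.8 and 128.9 under overexpression and at 398.1, 448.4 and 221.2 in the controls. FOXO6 was lower in each overexpression library than in the control of the same number, but overexpression replicate 2 exceeded control replicate 3. FOXO6 fell with the term (log2 fold change -0.96 ± 0.16, limma adjusted p = 0.000318), a call that was lost without overexpression replicate 3 (log2 fold change -1.06, adjusted p = 0.0667). Without control replicate 3 the fold change was the same, resting on replicates 1 and 2, and the limma adjusted p was 0.0432. FOXO1, the family member with the longest record in insulin action, was at 141.2, 122.5 and 150.4 against 117.0, 171.0 and 159.5, and was not called (log2 fold change -0.10 ± 0.18, adjusted p = 0.756). The called members of the family were thus 2 of 4, against 19.4% of all genes tested and 29.9% of genes with 10 reads throughout a group. The difference between the fold changes of FOXO4 and FOXO6 and that of FOXO3 was not tested.

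**Figure D2:**
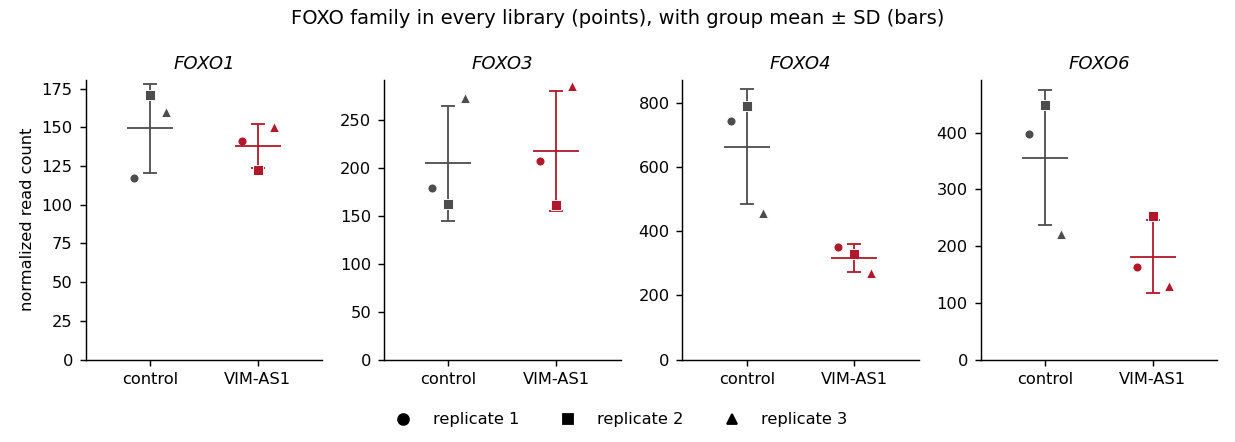
Normalized read count (vertical axes, from 0) of FOXO1, FOXO3, FOXO4 and FOXO6 in each library, with group mean ± SD over 3 libraries. For FOXO4 all 3 overexpression libraries (269.1 to 351.9) lie below all 3 controls (458.1 to 790.4), while the groups of FOXO1 and FOXO3 overlap.

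KLHL24 showed the lowest log2 fold change of the 10 genes. It encodes a kelch-like adaptor of cullin-RING ubiquitin ligases that acts on keratin turnover. KLHL24 (ENSG00000114796) lies on the plus strand of chromosome 3 from 183635568 to 183684477. Its values were 75.9, 68.6 and 133.0 under overexpression and 199.5, 197.9 and 305.7 in the controls. All overexpression libraries lay below all controls, replicate 3 was the highest in both groups, and the mean was 2.53 times higher in the controls (234.4 ± 61.8 against 92.5 ± 35.3, SD, n = 3). The log2 fold change was -1.36 ± 0.16 (SE; limma with the term, adjusted p = 1.23e-05), and without the term the adjusted p was 0.115. It was -1.45 from replicates 1 and 2 and -1.19 from replicate 3 alone. The call with the term was kept without any single library, with log2 fold changes from -1.45 to -1.30.

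IRS2 was the called gene that rose. It encodes insulin receptor substrate 2, which couples the insulin and IGF1 receptors to PI3 kinase and is a known FOXO target through which FOXO activity feeds back on insulin signalling. IRS2 (ENSG00000185950) is a gene of chromosome 13, minus strand, from 109752698 to 109786568. Its values were 1644, 1741 and 2140 under overexpression and 922.8, 877.2 and 1122 in the controls. Every overexpression library exceeded every control, with means of 1841 ± 263 and 974.1 ± 130, a ratio of 1.89. The log2 fold change was 0.92 ± 0.10 (SE; limma with the term, adjusted p = 4.87e-06) and the adjusted p without the term was 0.113. It was 0.91 from replicates 1 and 2 and 0.93 from replicate 3 alone, and it stayed between 0.90 and 0.94 without any single library, called each time. IRS2 (718 to 2091 reads a library) and TSC22D3 (883 to 1483) were the genes of the set with the most reads.

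The promoters of KLHL24 and IRS2 are shown because these genes had the lowest and the highest fold change of the set and moved in opposite directions. The sequences are RefSeq promoter windows (GRCh38.p14), 250 bases before to 50 bases after an annotated start, which were found for 9 of the 10 genes in 18 windows (FBXO32 was not matched). The 250 bases before the RefSeq start of KLHL24 (chr3:183635373-183635622, plus strand) are 60.8% G or C. Those before the RefSeq start of IRS2 (chr13:109786584-109786833, minus strand) are 76.4% G or C. The KLHL24 stretch runs past the GENCODE start of that gene at 183635568, so its last bases lie within the gene as annotated there. Both stretches are printed 5′ to 3′ in lower case, as neither holds the motif searched.
KLHL24: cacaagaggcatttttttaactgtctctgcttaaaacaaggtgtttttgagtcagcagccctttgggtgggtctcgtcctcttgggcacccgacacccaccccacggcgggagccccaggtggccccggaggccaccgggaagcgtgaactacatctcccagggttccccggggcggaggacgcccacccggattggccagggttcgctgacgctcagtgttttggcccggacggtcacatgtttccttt
IRS2: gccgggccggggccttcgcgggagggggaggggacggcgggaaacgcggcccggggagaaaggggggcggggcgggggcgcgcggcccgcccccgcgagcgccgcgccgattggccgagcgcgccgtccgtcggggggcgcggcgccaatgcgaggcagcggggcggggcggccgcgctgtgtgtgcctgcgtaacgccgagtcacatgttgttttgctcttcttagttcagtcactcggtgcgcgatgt

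The motif searched was the forkhead consensus GTAAACA on either strand, which reads TGTTTAC on the other strand, with no overlap with another motif searched. It was present in 2 of the 18 windows (11.1%), one each of PIK3IP1 and TSC22D3, and in 1202 of all 35116 RefSeq promoter windows of the same length (3.42%). Of the other FOXO genes, the window of FOXO4 held it and those of FOXO1 and FOXO6 did not. A match describes letters in a window and is not a site of binding, and a window without it says nothing about the factor. The 3 matches are given 5′ to 3′ on the gene's strand with the motif in capitals. They begin 17 bases after a start of PIK3IP1 (chr22:31292456-31292482, minus strand) and 147 bases before a start of TSC22D3 (chrX:107717193-107717219, minus strand). In FOXO4 the match begins 24 bases after a RefSeq start (chrX:71095864-71095890, plus strand). That window ends at 71095900, before the GENCODE start of FOXO4 at 71096197.
PIK3IP1: aaagagaggcTGTTTACcagaacagca
TSC22D3: agtgctgaacTGTTTACagtcccagcc
FOXO4: ccggcgagtgGTAAACAgagacgtcag
TSC22D3 and FOXO4 fell with the term, and PIK3IP1 was not called. KLHL24 fell and IRS2 rose without these letters in the windows printed above.

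PIK3IP1 (ENSG00000100100), on chromosome 22 (minus strand) from 31281593 to 31292534, encodes a membrane protein that inhibits PI3 kinase. Its values were 121.2, 91.1 and 87.0 under overexpression and 158.3, 102.6 and 121.6 in the controls. Each overexpression library lay below the control of the same number, but the groups overlapped. PIK3IP1 had a log2 fold change of -0.34 ± 0.20 (SE; limma with the term, adjusted p = 0.26), with a 95% interval from -0.76 to 0.07. It had 84 to 165 reads a library.

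CCNG2 (ENSG00000138764), on the plus strand of chromosome 4 from 77157151 to 77433388, encodes cyclin G2, an unusual cyclin that accumulates in resting cells and is a direct FOXO target. Its values were 85.3, 88.2 and 163.7 under overexpression and 126.6, 129.5 and 222.7 in the controls. It was lower in 3 of 3 same-numbered pairs, while overexpression replicate 3 stood above control replicates 1 and 2. The mean was 112.4 ± 44.5 against 159.6 ± 54.7, and CCNG2 fell by 0.52 on the log2 scale (SE 0.16; limma with the term, adjusted p = 0.0314), against an adjusted p of 0.54 without the term. The call was lost in DESeq2 with the term (adjusted p = 0.0728) and without any one library other than control replicate 1 (overexpression replicates 1, 2 and 3, or control replicates 2 and 3), with adjusted p from 0.0646 to 0.167 and log2 fold changes from -0.56 to -0.49.

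FBXO32 (ENSG00000156804), on chromosome 8 (minus strand) from 123497889 to 123541206, encodes atrogin-1, the F-box subunit of a ubiquitin ligase that FOXO factors induce in wasting muscle. Its values were 95.9, 111.7 and 103.4 under overexpression and 184.2, 240.7 and 190.4 in the controls. All overexpression libraries lay below all controls, and replicate 3 was not the extreme of either group. The mean was 103.6 ± 7.91 against 205.1 ± 31.0, 1.98 times higher in the controls. The log2 fold change was -0.97 ± 0.17 (SE; limma with the term, adjusted p = 0.000426), and the adjusted p without the term was 0.132. It was -1.02 from replicates 1 and 2 and -0.87 from replicate 3 alone. The call was lost when overexpression replicate 3 was left out (log2 fold change -1.02, adjusted p = 0.0625). Without control replicate 3 the fold change was the same, resting on replicates 1 and 2, and the limma adjusted p was 0.0453.

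**Figure D3:**
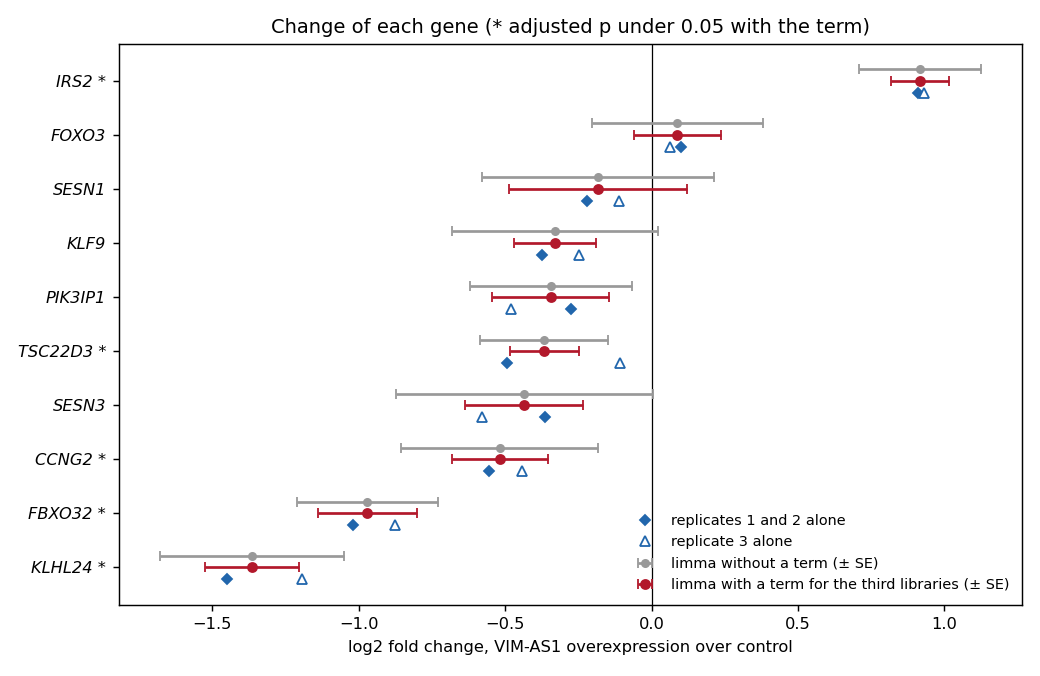
Log2 fold change (horizontal axis) of the 10 genes, VIM-AS1 overexpression over control, by limma without a term (grey) and with a term for the third libraries (red), with bars of ± 1 SE; blue marks give the values from replicates 1 and 2 and from replicate 3 alone, with no error. The term leaves the estimates as they are (KLHL24 -1.36, IRS2 0.92) and shortens the error bars, for KLHL24 from 0.31 to 0.16.

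The sestrins SESN1 and SESN3 are stress-induced proteins that bind the GATOR2 complex and hold down mTORC1, and both are known FOXO targets. SESN3 (ENSG00000149212), on chromosome 11 (minus strand) from 95165513 to 95232541, was at 75.9, 60.7 and 147.4 under overexpression and at 108.4, 70.9 and 220.4 in the controls. It was lower in 3 of 3 same-numbered pairs, yet replicate 3 of both groups stood above all other libraries, and the groups overlapped. SESN3 had a log2 fold change of -0.44 ± 0.20 (SE; limma with the term, adjusted p = 0.148). It was called without control replicate 2 (log2 fold change -0.63, adjusted p = 0.0357) and in no other setting run with the term.

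SESN1 (ENSG00000080546), on chromosome 6 (minus strand) from 108986437 to 109094819, had the fewest reads of the set, 24 to 77 a library. Its values were 60.1, 23.5 and 56.3 under overexpression and 44.1, 44.0 and 60.8 in the controls. Overexpression replicate 2 alone was low, and the other 5 libraries lay between 44.0 and 60.8. SESN1 had a log2 fold change of -0.18 ± 0.30 (SE; limma with the term, adjusted p = 0.73), with a 95% interval from -0.82 to 0.45, and it turned to 0.20 without overexpression replicate 2. On the opposite strand the noncoding gene AL390208.1 shares 363 bp (7.09%) of the SESN1 exons, at a mean value of 0.263. SESN2, the paralog induced mainly by the unfolded protein and amino acid stress response, was at 503.7 ± 109 against 610.8 ± 137 and was not called with the term (log2 fold change -0.28 ± 0.12, adjusted p = 0.106), while the fit with the replicate block gave an adjusted p of 0.0277.

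KLF9 and TSC22D3 answer to steroid hormones as well as to FOXO factors: both are induced through the glucocorticoid receptor, and TSC22D3 encodes GILZ, a leucine zipper protein that mediates part of the anti-inflammatory action of glucocorticoids. TSC22D3 (ENSG00000157514), on chromosome X (minus strand) from 107713221 to 107777342, was at 930.3, 1178 and 987.5 under overexpression and at 1423, 1531 and 1065 in the controls. It was lower in 3 of 3 same-numbered pairs, but overexpression replicate 2 exceeded control replicate 3. The mean was 1032 ± 130 against 1339 ± 244, and TSC22D3 fell by 0.37 on the log2 scale (SE 0.12; limma with the term, adjusted p = 0.0328), against an adjusted p of 0.50 without the term. The log2 fold change was -0.50 from replicates 1 and 2 and -0.11 from replicate 3 alone. The call was lost without overexpression replicates 1, 2 or 3 or control replicates 2 or 3, with adjusted p from 0.0537 to 0.249 and log2 fold changes from -0.50 to -0.23.

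KLF9 (ENSG00000119138), on chromosome 9 (minus strand) from 70384597 to 70414624, encodes a Krüppel-like repressor that restrains proliferation. Its values were 181.2, 164.6 and 354.1 under overexpression and 250.4, 200.4 and 420.2 in the controls. The control was higher in 3 of 3 same-numbered pairs, and replicate 3 was the highest library of both groups. KLF9 had a log2 fold change of -0.33 ± 0.14 (SE; limma with the term, adjusted p = 0.109), with a 95% interval from -0.62 to -0.04 before adjustment. With the replicate block the adjusted p was 0.0363, and with the term and a correction for GC content and length it was 0.0355 (log2 fold change -0.39).

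Per kb of merged exon, the levels of the 10 genes in the controls spanned from 9.69 ± 1.89 normalized reads per kb for SESN1 (SD, n = 3) to 281.0 ± 51.2 for TSC22D3. IRS2 followed TSC22D3 at 119.7 ± 16.0, then KLF9 at 56.1 ± 22.3 and PIK3IP1 at 33.5 ± 7.43. FBXO32 (27.7 ± 4.19), KLHL24 (27.1 ± 7.14), FOXO3 (26.6 ± 7.73) and CCNG2 (21.4 ± 7.32) lay within each other's spread, as did SESN3 (12.6 ± 7.36) and SESN1. Under overexpression IRS2 reached 226.3 ± 32.3 per kb, within the spread of TSC22D3 at 216.5 ± 27.2, whereas KLHL24 stood at 10.7 ± 4.08 beside SESN1 at 9.10 ± 3.92 and SESN3 at 8.95 ± 4.38.

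The third libraries moved most of these genes in both groups at once. The mean log2 difference of replicate 3 from replicates 1 and 2 was positive for 7 of the 10 genes, from -0.28 for TSC22D3 to 1.21 for SESN3. It was 0.97 for KLF9, 0.85 for CCNG2, 0.75 for KLHL24 and 0.66 for FOXO3, each larger than the effect of VIM-AS1 overexpression on the same gene except for KLHL24. The transcripts of SESN3 (37.1% GC) and KLHL24 (36.7%) are rich in A and T, and IRS2, at 58.7% GC, had a shift of 0.33. IRS2 lay above the general trend, in which genes of high GC content had negative shifts, and FBXO32, at 43.5% GC, had a shift of -0.07. The median log2 fold change of the 10 genes between the groups was -0.37 in replicates 1 and 2 and -0.34 in replicate 3, while single genes differed more, as TSC22D3 (-0.50 and -0.11) and SESN3 (-0.36 and -0.58) did. These differences between replicates were not tested.

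**Figure D4:**
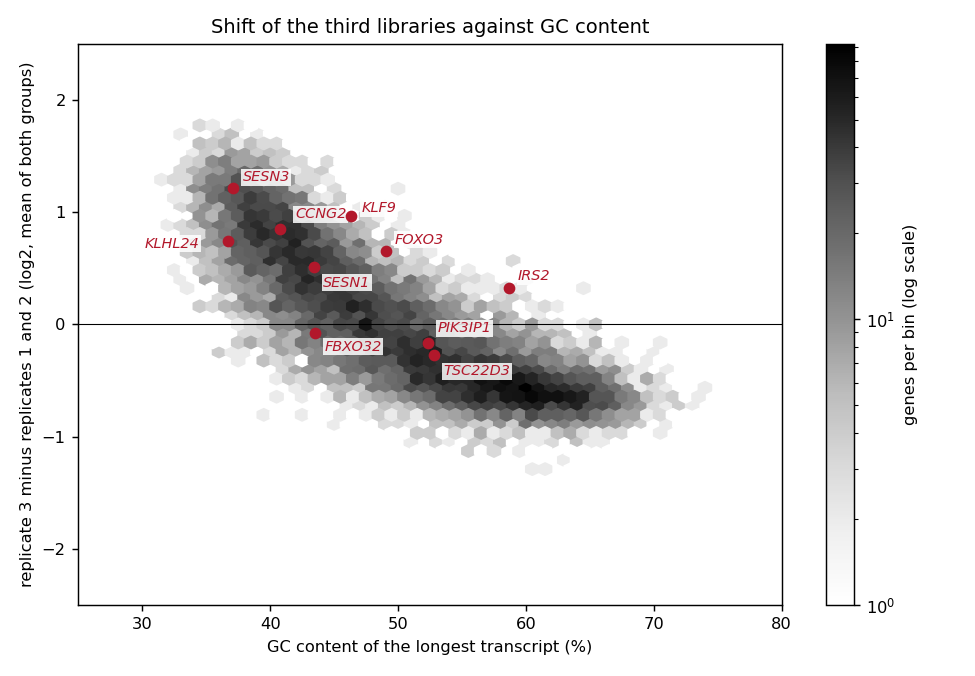
Log2 difference of replicate 3 from replicates 1 and 2, averaged over both groups (vertical axis), against the GC content of the longest transcript in percent (horizontal axis), with genes of a mean of at least 20 as grey bins and the 10 genes as red points. The cloud descends from GC-poor to GC-rich genes (Spearman rho -0.83), and 7 of the 10 genes lie above 0.

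Across the 6 libraries, the pattern of FOXO3 was most like those of ASH1L (Pearson r of log2(value + 1) 0.998), CHMP2B (0.998) and NKAPD1 (0.997), out of 9749 genes with a mean of at least 100. That of IRS2 was most like those of CENPN (0.998), CA12 (0.997) and ERCC3 (0.995). Within the set the closest pair was SESN3 and KLF9 (0.98), followed by CCNG2 and KLF9 (0.95). FOXO3 was most like SESN3 and KLHL24 most like CCNG2 (both 0.86), while for IRS2 and PIK3IP1 the highest r with any of the other genes was 0.41. These are descriptions over 6 points that share the shift of the third libraries and the same GC trend.

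Other genes of the FOXO pathway were taken from lists chosen by name. The shares called with the term stand beside backgrounds of 19.4% of all genes tested and 29.9% of genes with 10 reads throughout a group. All lists together, without the 10 genes, had 47 of 128 tested genes called (36.7%). Differences from these backgrounds were not tested. Of the FOXO-induced list 32.1% was called. Among 28 tested FOXO-induced genes outside the set, 3 rose, 6 fell and 19 were not called with the term, with a median log2 fold change of -0.04 against -0.02 for all genes. After the GC and length correction 5 of them were higher and 4 lower, so the balance of directions in this list turned with that correction. Over all genes the correction moved the share of higher among called genes from 59.1% to 69.5%. TXNIP, an arrestin-like protein that limits glucose uptake, fell from 2757 ± 77.6 to 1318 ± 83.9 (log2 fold change -1.07 ± 0.10, SE, limma adjusted p = 1.32e-06). CITED2, a CBP/p300-binding regulator, rose from 1373 ± 119 to 2424 ± 138 (0.82 ± 0.10, adjusted p = 2.29e-05), and both genes had groups without overlap. IGFBP1, which binds insulin-like growth factors, rose from 118.9 ± 23.5 to 202.5 ± 13.6 (0.78 ± 0.17, adjusted p = 0.00295), and the receptor gene ERBB3 fell from 79.6 ± 13.7 to 37.7 ± 2.08 (-1.05 ± 0.24, adjusted p = 0.00427). The other genes of this list that fell were ULK1 (-0.42, limma adjusted p = 0.00994), BBC3 (-0.54, 0.0115), BNIP3L (-0.37, 0.0235) and BCL2L11 (-0.37, 0.0420). CAT rose as well (0.40, limma adjusted p = 0.0452). The number called dropped to 2 without overexpression replicate 3 or without control replicate 3, to 4 without overexpression replicate 1, and was 6 without overexpression replicate 2.

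The quiescence and growth arrest list held the gene with the lowest adjusted p of all lists. YPEL3, a small zinc-binding protein linked to growth arrest, was at 79.0, 72.5 and 45.0 under overexpression and at 438.4, 455.7 and 316.7 in the controls (log2 fold change -2.63 ± 0.15, SE, limma with the term, adjusted p = 5.2e-09), and it was the gene of all lists called without the term. Its relative YPEL5 fell from 309.9 ± 79.8 to 102.9 ± 15.5 (-1.56 ± 0.15, adjusted p = 1.57e-06), and the gene of the CDK inhibitor p57, CDKN1C, fell from 1208 ± 180 to 802.2 ± 123 (-0.59 ± 0.12, adjusted p = 0.00124). Of the 22 genes 2 rose (KLF6 and ZFP36L2), 6 fell and 14 were not called. The genes that fell also included TXNIP, HES1 and CCNG1, the paralog of CCNG2 (-0.45 ± 0.10, limma adjusted p = 0.00445). The share called was 36.4%, against backgrounds of 19.4% and 29.9%. The CDK inhibitor gene CDKN1B, whose p27 protein is the textbook marker of FOXO-driven arrest, was not called (log2 fold change 0.22, adjusted p = 0.22). CDKN1A, which encodes p21 (-0.13, adjusted p = 0.453), and BCL6 (0.03, adjusted p = 0.913) were not called either. These 3 genes were picked for mention with their values known. After the GC and length correction 4 were higher and 5 lower, and with library size scaling none was higher and 7 were lower. The list's number called was 3 without overexpression replicate 3 or control replicate 3, and 12 without control replicate 1.

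The insulin, PI3K, AKT and mTOR list had 8 genes that rose, 2 that fell and 17 not called of 27 tested. Its median was 0.15, and 37.0% of its genes were called, against backgrounds of 19.4% and 29.9%. The kinase gene MTOR rose from 992.2 ± 69.4 to 1525 ± 96.2 (log2 fold change 0.62 ± 0.10, SE, limma with the term, adjusted p = 0.000282), and RPTOR, its mTORC1 partner, rose by 0.59 ± 0.12 (adjusted p = 0.00181). IRS1, the paralog of IRS2, stood at 925.0, 883.7 and 999.8 under overexpression and at 605.3, 615.7 and 590.0 in the controls. It rose by 0.63 ± 0.11 on the log2 scale (adjusted p = 0.000338), without overlap, as IRS2 did. IGF1R, the receptor that signals through both, rose from 1944 ± 107 to 2722 ± 82.8 (0.49 ± 0.10, adjusted p = 0.00168). SGK3 (-1.12), a kinase that phosphorylates FOXO factors, fell, while AKT1 (0.38), AKT2 (0.34) and SGK1 (0.42) rose. Here the number called was 0 without overexpression replicate 3, 1 without control replicate 3 and 6 without overexpression replicate 2.

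The median of the 21 genes whose products export or modify FOXO proteins was 0.30, and 47.6% were called, against backgrounds of 19.4% and 29.9%. Of these genes 10 rose, none fell and 11 were not called with the term. They include the 14-3-3 genes YWHAQ, which rose from 3139 ± 312 to 5078 ± 931 (log2 fold change 0.68 ± 0.10, SE, limma with the term, adjusted p = 0.000119), YWHAG (0.49, adjusted p = 0.00165), YWHAZ (0.49, adjusted p = 0.0022) and YWHAB (0.36). The exportin gene XPO1 (0.35), the acetyltransferase genes CREBBP (0.38) and EP300 (0.44), the methyltransferase genes PRMT1 (0.47, adjusted p = 0.00749) and SETD7 (0.34), and CDK2 (0.37) rose as well. The number called fell to 0 without overexpression replicate 3, to 1 without control replicate 3, to 5 without overexpression replicate 2 and to 6 without overexpression replicate 1. Of 20 tested genes of the sestrin, GATOR and Rag pathway, through which sestrins act on mTORC1, 2 rose and 18 were not called. This share of 10% was below both backgrounds. The genes that rose were LAMTOR1 (0.32, limma adjusted p = 0.0299) and ITFG2 (0.53, adjusted p = 0.0224). The number called was 0 without overexpression replicate 2, overexpression replicate 3 or control replicate 3. It was 1 without control replicate 2, and 5 without control replicate 1 or with the replicate block.

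Steroid-responsive genes other than KLF9 and TSC22D3 that were called were all higher. Of 8 tested targets of steroid hormone receptors, 4 rose, none fell and 4 were not called with the term. Their median was 0.34, and 50% were called, against backgrounds of 19.4% and 29.9%. PER1, a clock gene, was at 4031, 4399 and 2589 under overexpression against 2205, 2660 and 1479 in the controls (log2 fold change 0.80 ± 0.10, SE, limma with the term, adjusted p = 3.51e-05). Overexpression replicate 3 lay below control replicate 2, and each overexpression library exceeded the control of the same number. FKBP5, a chaperone of steroid receptors, rose from 277.5 ± 45.3 to 478.2 ± 119 (0.77 ± 0.13, adjusted p = 0.000296), and SGK1 and DUSP1 (0.34) rose too. The number called was 1 without overexpression replicate 3 or control replicate 3 and 2 without overexpression replicate 2. The difference between TSC22D3 and these genes was not tested.

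Of the 13 paralogs in the data 61.5% were called with the term, against backgrounds of 19.4% and 29.9%. Among them 4 rose, 4 fell and 5 were not called. Besides IRS1, CCNG1, FOXO4 and FOXO6, these were TSC22D1 (0.38, limma adjusted p = 0.0117), TSC22D2 (0.44, adjusted p = 0.0485), KLF16 (0.41, adjusted p = 0.0119) and FBXO25 (-0.44, adjusted p = 0.0262). The paralog moved with its gene for IRS1 and CCNG1, and for FBXO25 beside FBXO32, whereas TSC22D1 and TSC22D2 rose where TSC22D3 fell. SESN2, TSC22D4, KLF13, CCNI and FOXO1 were not called. The number of paralogs called was 1 without overexpression replicate 3, 2 without control replicate 3 and 4 without overexpression replicate 2. FOXO4, TXNIP, CITED2, YPEL3, YPEL5 and PER1 kept their call with the term in every setting run.

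**Figure D5:**
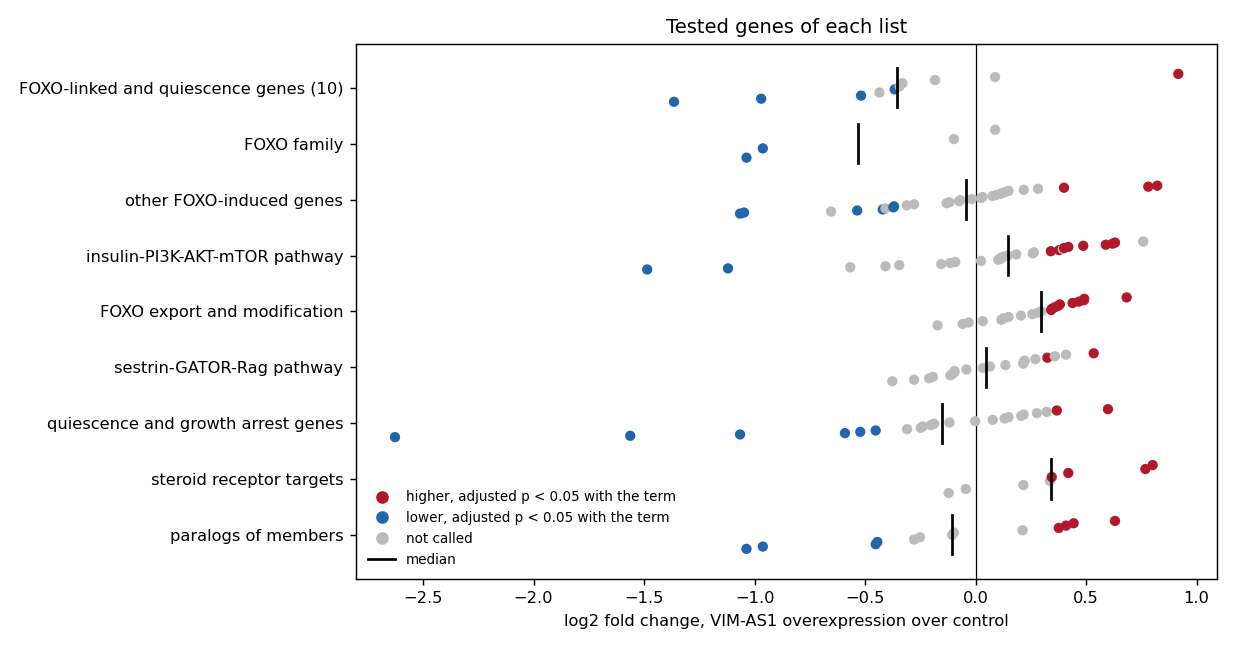
Log2 fold change, VIM-AS1 overexpression over control (horizontal axis), of each tested gene in the lists (rows), red for genes that rose and blue for genes that fell with the term (limma), grey where not called; black lines are medians. The genes of FOXO export and modification sit mostly above 0 (median 0.30), and the 10 genes of the set mostly below (median -0.36).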

How the data were processed

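Trimming with fastp, alignment with HISAT2 to hg38 and gene counting with featureCounts were done by the authors, per the submitters' processing notes, without versions. Libraries were made from 1.3 ug of total RNA, per the labels' protocols, with a kit not named as marking strand. Not given in the sources used here are the annotation, the strand setting and the normalization step. The deposited signal per gene is a read count divided by 1 factor per library (0.819 to 1.27): 100% of values gave whole reads within 0.01 read. The 6 libraries (3 per group) held 14762893 to 19889745 reads. A count of 0 allows up to 3 reads, 0.151 to 0.203 CPM, for counting error only. Without strand, reads of antisense partners cannot be told apart: IRS2, SESN1, SESN3, PIK3IP1 and TSC22D3 have one over 0.88% to 7.09% of their exons, each with a mean value of at most 6.86.

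All 25969 identifiers (100%) matched GENCODE 29. The main test was limma 3.58.1 (R 4.3.3) with a trend and moderated variances (eBayes) on log2(value + 1), two-sided, without a term for the third libraries. It was run over the 20927 genes with a mean of at least 1, Benjamini-Hochberg adjusted with a threshold of 0.05. The same fit with a term for the third libraries was run beside it, and the words rose and fell rest on that fit. Alternatives were edgeR 4.0.16, DESeq2 1.42.0 and limma-voom on recovered reads, other scalings, filters and a pseudocount of 0.1, a GC and length correction (splines with 5 degrees of freedom), a replicate block, and each library left out. Both fits were also run on simulated reads that had the shift of the third libraries built in. Such data cannot show whether the p-values of the fit with the term are too small here. The genes, lists and tests were chosen with earlier results of these data known. All 10 genes were described, plus up to 4 called genes per list with the lowest adjusted p and the paralogs; other genes named were chosen after their values were seen. Some listed genes were not analysed here.

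Replicate numbers come from the labels. Deviations from the group means of same-numbered libraries correlated at 0.32, 0.72 and 0.84 for replicates 1, 2 and 3 across 13175 genes. Overexpression replicate 1 correlated at 0.42 with control replicate 2, and overexpression replicate 2 at 0.33 with control replicate 1. Deviations from a mean of 3 libraries sum to 0, so the shared shift of the third libraries pushes all values among replicates 1 and 2 upward. The correlations therefore cannot show whether replicates 1 and 2 are paired by number. The replicate block and the comparisons of same-numbered libraries rest on the labels.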

Additional observations from a re-analysis of the deposited data

How the results depend on the processing

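Without the term, 0 of the 10 genes were called by limma, 3 by DESeq2 (1.69% of all genes), 3 after the GC and length correction (10.7%), and 6 with the replicate block, alone (26.6%) or with that correction (28.2%). For the pathway lists together (128 tested genes) the count without the term was 1, where 0.0239% of all genes were called. It was 5 in DESeq2, 24 after the GC and length correction, 60 with the replicate block and 64 with that block and correction. The shares of all genes given above for these settings apply here too. Without single libraries the count was 0 to 2. With the term, 5 of the 10 genes and 47 list genes were called, and without single libraries 2 to 5 and 6 to 57. Over all genes the share called was 19.4% with all libraries and 1.37% to 21.6% without single libraries. Among the 10 genes KLF9 was called with the replicate block and not with the term, and the block changed no other call against the fit with the term. In the lists SESN2, RICTOR and PDK4 were among the genes called with the block and not with the term. Signs turned for FOXO3, from 0.09 to -0.0033 under the GC and length correction without the term, with it and with the replicate block, and over -0.12 to 0.31 (without the term) and -0.018 to 0.19 (with it) when single libraries were left out. In the same way SESN1 ranged from -0.42 to 0.24 without the term and from -0.55 to 0.20 with it, SESN3 from -0.81 to 0.0049 without it, and FOXO1 from -0.25 to 0.059 with it. With the term, 133 of the results of the 10 genes over the alternatives kept direction and side of the threshold, 12 lost the call, 2 gained it and 3 turned sign. For other list genes these numbers were 428, 63, 3 and 1. Both sets of numbers include the 2 settings without a replicate 3, which with the term give the same fold change and are not separate checks. SESN1 had the fewest reads of the 10 genes, 24 to 77 a library.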
